A study of Mus musculus with 21 samples.

Results

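The effect of an Acss2 knockdown on the dorsal hippocampus of ethanol-treated mice was described from 7 of the 21 RNA-sequencing libraries of the series, chosen by their labels: 4 knockdown libraries (replicates 1 to 4) and 3 control libraries (replicates 1 to 3). Knockdown replicate 5 was left out because it held 5021 gene reads, under the minimum of 1000000, and 2 reads of Acss2. The mice were males of 8 weeks, and both groups received ethanol intraperitoneally at 2 g/kg, given as a 20% solution in saline. The time from ethanol to dissection was not given in the sources used here. Knockdown mice received an adeno-associated virus of serotype AAV2/9 in which a U6 promoter drove a short hairpin RNA against Acss2 and a CMV promoter drove EGFP. One protocol places the virus stereotaxically in the dorsal hippocampus, while the text on the design lends itself to a systemic reading. No vector or surgery is described for the control group, so the knockdown, the vector and the surgery cannot be told apart. The labels also do not say that replicates are separate animals, and p-values therefore measure only the spread between these libraries.

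ACSS2 is the nuclear and cytosolic acetyl-CoA synthetase: it joins acetate, an end product of liver ethanol oxidation, to coenzyme A. The acetyl-CoA it makes serves histone acetyltransferases in neurons and lipid synthesis in the cytosol. Among the other programmes described, type I interferons signal through cell-surface receptors and JAK kinases to genes that restrict viruses, and neuronal firing induces the immediate early transcription factors within minutes.

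Gene reads per library ranged from 2819837 in control replicate 1 to 13240179 in control replicate 3, with 7416053 to 9029427 in the knockdown libraries. Levels are given as CPM, reads of a gene per 1000000 gene reads, after scaling between libraries by the trimmed mean of M-values (TMM). The ribosomal RNA precursor Rn45s took 1.17% of gene reads in knockdown replicate 2 and 20.7% in control replicate 1, and between 3.66% and 18.2% in the other libraries. Across genes, log2 CPM correlated at 0.956 to 0.974 among control libraries and at 0.925 to 0.962 among knockdown libraries. The spread between replicates was wider in the knockdown group, with a median SD of 0.37 on the log2 CPM scale against 0.24 in controls.

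Acss2 itself (ENSMUSG00000027605.18, a protein-coding gene on the plus strand at chr2:155517948-155585724 of mm10) was at 43.6, 39.3, 17.5 and 18.6 CPM in knockdown replicates 1 to 4. It was at 52.0, 56.7 and 51.7 CPM in the control libraries. On this TMM scale the groups did not overlap, and the knockdown libraries differed among themselves, replicates 3 and 4 being the lowest: 81.5%, 73.6%, 32.7% and 34.8% of the control mean. The mean was 29.8 ± 13.6 CPM (SD, n = 4) against 53.5 ± 2.80 CPM (SD, n = 3), or 55.7% of control. An exact two-sided permutation test of the TMM-scaled CPM gave p = 0.0571, where the smallest p this design allows is 0.0286. Without TMM scaling the groups overlapped, with knockdown replicate 2 at 48.3 CPM and control replicate 1 at 42.2 CPM. The same permutation test then gave p = 0.114. In edgeR's quasi-likelihood test the log2 fold change was -0.85 (SE 0.32, unadjusted p = 0.0271, Benjamini-Hochberg adjusted p = 0.647). Exons of Acss2os, Ggt7 and Gss overlap Acss2 on the opposite strand, and the strand setting of the authors' counting was not given in the sources used here.

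**Figure D1:**
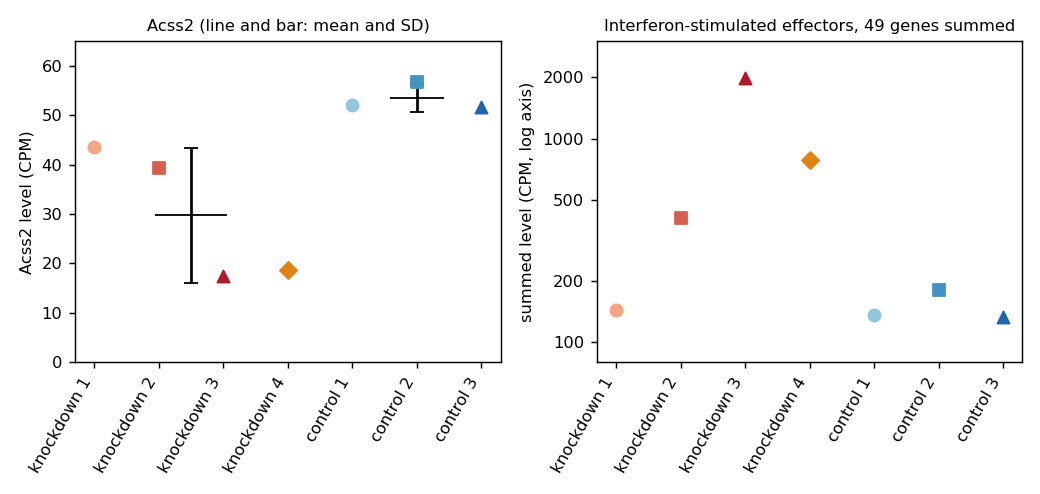
Left, Acss2 in TMM-scaled CPM, 1 point per library, with the mean and SD of each group. Right, the summed CPM of 49 interferon-stimulated effectors in the same libraries on a log axis. Acss2 lies between 17.5 and 43.6 CPM in knockdown libraries and between 51.7 and 56.7 CPM in controls, and the interferon sum spans 145 to 1986 CPM in knockdown libraries against 133 to 181 CPM in controls.

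The other enzymes and carriers around acetyl-CoA differed little. Of 16 tested members of their list, which includes Acss2, 7 were higher and 9 lower in the knockdown. The median log2 difference was -0.04, against 0.02 over all 14035 tested genes. Besides Acss2, the lactate carrier Slc16a3 had an unadjusted p under 0.05: it was at 1.26, 2.24, 2.02 and 3.62 CPM in knockdown and at 3.5, 5.34 and 3.98 CPM in control libraries (log2 difference -0.93, SE 0.39). Its groups overlapped. Nat8l, which makes N-acetylaspartate from acetyl-CoA, was at 299, 143, 282 and 274 CPM in knockdown and 431, 416 and 272 CPM in controls (log2 difference -0.58, SE 0.29). Of 13 histone acetyltransferases and bromodomain readers, 3 were higher and 10 lower (median -0.18), and no member had an unadjusted p under 0.05. The member with the smallest p of that group was the acetyltransferase Kat6a, at 101, 36.2, 70.8 and 86.8 CPM against 129, 94.7 and 91.7 CPM (log2 difference -0.51, SE 0.32). Aldh2, the mitochondrial enzyme that turns acetaldehyde into acetate, was at 61.8, 67.5, 87.1 and 80.4 CPM against 92.2, 96.7 and 83.6 CPM (log2 difference -0.29, SE 0.18). The 8 tested enzymes of alcohol and aldehyde oxidation were split 5 higher to 3 lower (median 0.12).

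Genes of cholesterol synthesis and the SREBP pathway, which draw on cytosolic acetyl-CoA, were nearly uniform in sign and small in size. Of 29 tested members, 28 were lower and 1 was higher, with a median log2 difference of -0.27. Lower at an unadjusted p under 0.05 were 2 members, against 2.52% of all tested genes. Relative to the control mean on the log2(CPM + 1) scale, the median member was at -0.10, -0.17, -0.52 and -0.21 in knockdown replicates 1 to 4. Control replicate 1 was at -0.14 on the same scale, below knockdown replicate 1, while the other controls were at 0.02 and 0.10 (control replicate 2 and control replicate 3). Stard4, a sterol carrier, was at 12.2, 7.01, 3.29 and 7.12 CPM in knockdown and 13.1, 16.3 and 14.5 CPM in control libraries, without overlap (log2 difference -1.0, SE 0.37). Mvk, mevalonate kinase, was at 15.4, 20.2, 17.1 and 14.4 CPM against 22.3, 21.5 and 22.9 CPM, also without overlap (log2 difference -0.41, SE 0.18). Tm7sf2, a sterol reductase, was at 10.9, 12.6, 7.96 and 11.9 CPM against 11.4, 18.0 and 18.1 CPM, and its groups overlapped (log2 difference -0.57, SE 0.25). Leaving out 1 library at a time kept the median between -0.35 and -0.20.

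Across the whole transcriptome, no gene passed an adjusted p of 0.05 in edgeR's quasi-likelihood test with Benjamini-Hochberg adjustment: 0 of 14035, or 0%, with a smallest adjusted p of 0.378. At an unadjusted p under 0.05, 607 genes were higher in the knockdown (4.32%) and 354 were lower (2.52%). The groups did not overlap for 523 higher genes (3.73%) and 462 lower genes (3.29%). Without knockdown replicate 3 the number of genes at an unadjusted p under 0.05 was 578, and without control replicate 2 it was 602, against 961 with all libraries. DESeq2, run on the same libraries with 15455 genes tested, called 91 genes: 69 higher (0.446%) and 22 lower (0.142%). These shares are the background for the counts in each gene list below. In the following, "higher" and "lower" therefore describe levels, and every gene named has an adjusted p above 0.05 in edgeR's test.

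The 10 higher genes with the smallest p were chosen among genes whose groups do not overlap. Penk, which encodes the precursor of the enkephalins, was at 91.5, 108, 172 and 82.2 CPM in knockdown and at 32.8, 17.9 and 19.0 CPM in control libraries (log2 difference 2.33, SE 0.33, unadjusted p = 4.76e-05 and adjusted p = 0.378 in edgeR's test). Every knockdown library was above every control by a wide margin, although an opposite-strand gene, A830012C17Rik, shares exonic sequence with Penk. Ecel1, an endothelin-converting-enzyme-like protease, was at 26.1, 30.3, 88.9 and 36 CPM against 2.19, 2.76 and 7.21 CPM (log2 difference 3.34, SE 0.56). Rgs2, which shortens G-protein signalling, was at 87.3, 74.9, 62.8 and 123 CPM against 24.5, 30.2 and 33.4 CPM (log2 difference 1.55, SE 0.26). Trnp1, a nuclear regulator of neural progenitors, was at 341, 227, 318 and 272 CPM against 122, 141 and 133 CPM (log2 difference 1.13, SE 0.21). That these 4 genes were high in all 4 knockdown libraries, replicate 1 included, follows from the condition of the choice. Mylk, a myosin light chain kinase, was at 57.3, 47.5, 49.3 and 42.4 CPM against 22.3, 19.8 and 23.1 CPM (log2 difference 1.18, SE 0.17). Cited2, a CBP/p300-binding co-regulator, was at 53.8, 49.3, 48.6 and 57.2 CPM against 22.7, 22.2 and 33.6 CPM (log2 difference 0.98, SE 0.20). Col18a1 and Rhoj had log2 differences of 1.65 (SE 0.35) and 1.46 (SE 0.33), and C4b and Ccl5 are described with the immune genes.

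The 10 lower genes were chosen in the same way. Tshz2, a zinc-finger factor of deep-layer cortical neurons, was at 11.4, 42.0, 14.3 and 44.8 CPM in knockdown and 139, 280 and 102 CPM in control libraries (log2 difference -2.63, SE 0.53). Unc13c, a synaptic vesicle priming factor, was at 17.7, 27.6, 7.75 and 24.7 CPM against 58.1, 101 and 51.4 CPM (log2 difference -1.85, SE 0.40). Adamts2, a procollagen protease, was at 6.17, 5.05, 4.35 and 6.73 CPM against 14, 15.6 and 17.6 CPM (log2 difference -1.51, SE 0.23). That all 3 were low in each of the 4 knockdown libraries follows from the same condition of the choice. Npas2, a paralogue of the clock factor CLOCK, was at 25.1, 31.6, 23.7 and 29.1 CPM against 49, 53.5 and 51.3 CPM (log2 difference -0.91, SE 0.16). Hlf, a PAR-domain transcription factor with clock-driven expression, was at 59.9, 94.9, 55.6 and 86.6 CPM against 142, 228 and 146 CPM (log2 difference -1.21, SE 0.26). The remaining 5, Tmem44, Tox2, Cdh20, Plch1 and Btbd11, had log2 differences of -1.38 (SE 0.26), -1.0 (SE 0.20), -1.14 (SE 0.23), -1.38 (SE 0.28) and -0.88 (SE 0.19). Exons of A630075F10Rik and Gm26883 overlap Tshz2 on the opposite strand. Tshz2 was also in the list of neocortex markers, of which 11 of 13 tested members were lower (median -0.44). Summed, these markers were at 293, 338, 233 and 691 CPM in knockdown and 565, 1008 and 571 CPM in control libraries, and the part of dissection in the lower Tshz2 was not tested.

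**Figure D2:**
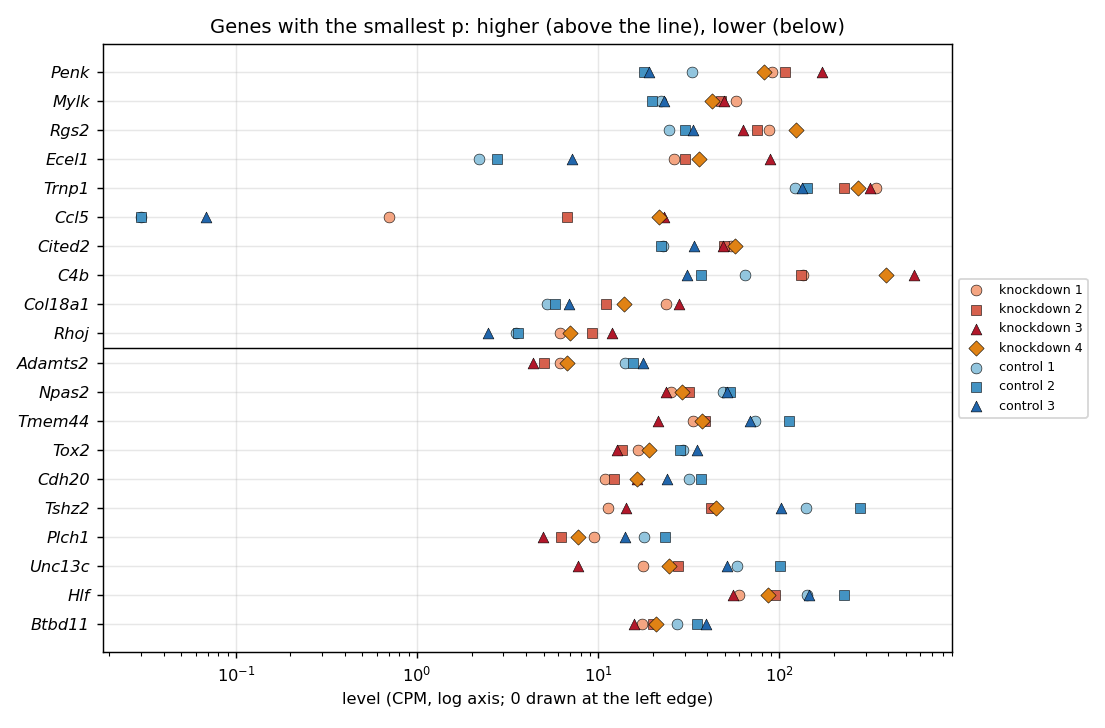
TMM-scaled CPM, on a log axis, of the 10 higher and 10 lower genes with the smallest unadjusted p among genes above 5 CPM on average whose groups stay apart, 1 point per library, with a level of 0 drawn at the left edge. Penk lies between 82.2 and 172 CPM in knockdown libraries and between 17.9 and 32.8 CPM in controls, and Tshz2 between 11.4 and 44.8 CPM against 102 to 280 CPM. Separation of the groups was a condition of the choice.

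Of the gene lists examined, the largest median difference was in interferon-stimulated effectors, the genes that type I and type II interferons induce to block viral replication. All 41 tested members of 49 were higher in the knockdown, with a median log2 difference of 2.76, and 35 had an unadjusted p under 0.05, against 4.32% of all tested genes. The filter on low counts can pass a gene through the group where it is high, but the 30 members with a control mean of at least 1 CPM were also all higher (median 2.39). The knockdown libraries did not contribute equally: relative to the control mean on the log2(CPM + 1) scale, the median member was at 0.01, 1.17, 3.47 and 1.81 in replicates 1 to 4. Replicate 1, the knockdown library with the highest Acss2 on the TMM scale, lay at the control level, and replicate 3 was the highest. Without TMM scaling, the knockdown library with the highest Acss2 was replicate 2, which lay above the control level for these effectors. For several of these genes the sequence just upstream of the transcription start holds copies of GAAANNGAAA, the core of the interferon-stimulated response element bound by IRF factors. Windows of 120 bases around the matches are shown for 6 members, taken in order of unadjusted p among those with a match, in lower case with the matches in capitals as they read on the gene's strand, in these windows always the reverse complement of the searched form. They are from RefSeq on GRCm38.p6, and the Ifit3 window (chr19:34583318-34583437, plus strand, ending 91 bases before the start) is identical to that of Ifit3b in 120 of 120 bases, so it is not repeated. Reads of that pair may have been split or discarded in counting.
Ifit3b (chr19:34607714-34607833, plus strand, ending 123 bases before the start): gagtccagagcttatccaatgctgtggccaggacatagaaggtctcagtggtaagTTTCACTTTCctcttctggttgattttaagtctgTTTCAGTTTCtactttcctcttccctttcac
Ifit1 (chr19:34640749-34640868, plus strand, ending 20 bases before the start): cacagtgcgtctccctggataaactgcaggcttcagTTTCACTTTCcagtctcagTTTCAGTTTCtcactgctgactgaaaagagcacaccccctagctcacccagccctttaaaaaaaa
Slfn8 (chr11:83020811-83020930, minus strand, ending at the start): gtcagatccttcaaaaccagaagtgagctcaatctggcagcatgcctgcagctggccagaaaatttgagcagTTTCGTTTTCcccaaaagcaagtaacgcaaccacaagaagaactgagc
Gbp5 (chr3:142496714-142496833, plus strand, ending 100 bases before the start): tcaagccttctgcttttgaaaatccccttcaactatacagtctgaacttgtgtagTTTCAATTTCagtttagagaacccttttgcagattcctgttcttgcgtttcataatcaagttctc
Rsad2 (chr12:26456508-26456627, minus strand, ending 55 bases before the start): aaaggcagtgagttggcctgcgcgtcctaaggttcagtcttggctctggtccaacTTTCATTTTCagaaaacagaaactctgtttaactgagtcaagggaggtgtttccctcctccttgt

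The windows of Ifit3b and Ifit1 hold 2 copies and the other 3 hold 1. With both strands searched over the 250 bases before the start, the motif was present in 17 of 29 interferon-stimulated effectors with a listed promoter (58.6%), in 328 of 10731 tested genes (3.06%) and in 936 of all 27025 genes of the promoter table (3.46%). It was present in 2 of 14 class I antigen presentation genes (14.3%). A match describes letters in the window and not a bound site.

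Ifit3, whose product binds viral RNA together with its relatives, was at 4.49, 25.5, 139 and 76.3 CPM in knockdown replicates 1 to 4 and at 3.5, 6.63 and 3.30 CPM in controls (log2 difference 3.73, SE 0.99). Its near-identical neighbour Ifit3b was at 4.07, 12.1, 64.3 and 35.8 CPM against 1.31, 2.85 and 1.65 CPM (log2 difference 3.81, SE 0.90). Ifit1, which binds RNA lacking a host cap, was at 1.68, 11.6, 83.8 and 38.7 CPM against 1.31, 2.85 and 1.65 CPM (log2 difference 4.03, SE 1.12). In each, replicates 2 to 4 were above every control, while replicate 1 was inside or just above the control range. Rsad2, the antiviral enzyme viperin, was at 0.561, 4.58, 32.0 and 24.5 CPM against 1.31, 1.56 and 0.481 CPM (log2 difference 3.88, SE 1.19). Gbp5, a guanylate-binding protein, was at 1.82, 4.49, 30.4 and 13.3 CPM against 0.874, 2.21 and 1.10 CPM (log2 difference 3.05, SE 0.91). Slfn8, a member of the Schlafen family, was at 1.12, 2.90, 20.8 and 7.12 CPM against 0.437, 1.10 and 0.687 CPM, barely without overlap (log2 difference 3.27, SE 0.97). Replicate 3 gave the highest value in all 6 genes. Lgals3bp, a secreted glycoprotein, was at 18.1, 36, 178 and 66.8 CPM against 13.6, 14.5 and 17.7 CPM (log2 difference 2.28, SE 0.68). Rtp4, a receptor transporter, was at 1.96, 7.85, 25.7 and 11.3 CPM against 0.874, 1.75 and 1.17 CPM (log2 difference 3.11, SE 0.78), and Ifi27l2a was at 0.841, 5.14, 24.9 and 7.51 CPM against 0, 0.184 and 0.481 CPM (log2 difference 4.91, SE 1.17).

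How far each library departed from controls can be read from the number of members above the highest control. In knockdown replicate 1, 6 of 41 members were above it (14.6%), fewer than the 26.1% of all tested genes in the same library. In replicates 2, 3 and 4 the share was 85.4%, 100% and 95.1%, against 37.6%, 29.3% and 25.4% of all tested genes. Because replicate 1 overlapped the controls, the groups did not overlap for 6 members only, against 3.73% of all tested genes. Without replicate 1 the groups were apart for 35 members, against 8.77% of all tested genes. The median log2 difference was 1.34 without replicate 3, when 32 of 33 tested members were higher, and 3.48 without control replicate 2. DESeq2 called 10 members, against 0.446% of all genes it tested.

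**Figure D3:**
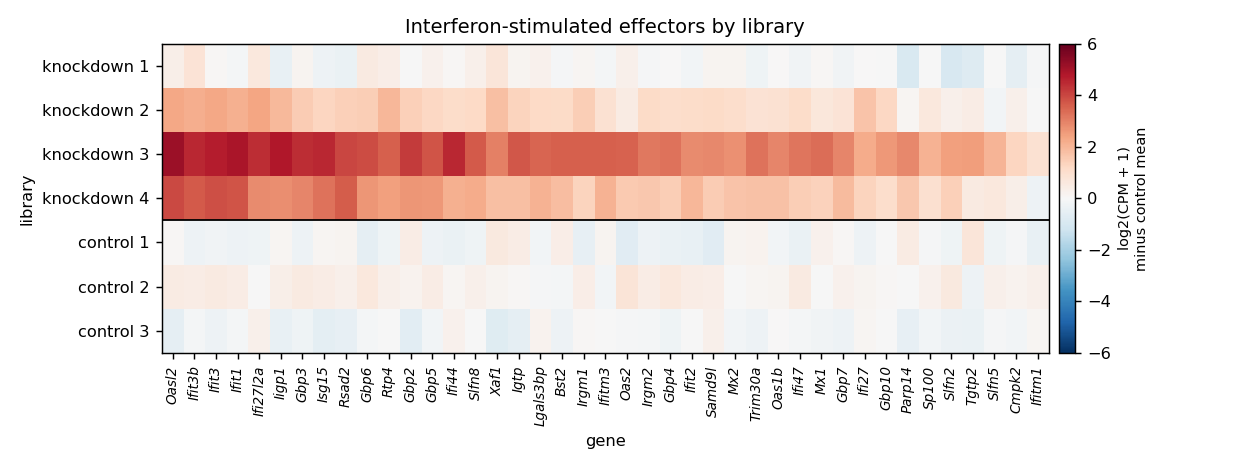
Levels of the 41 tested interferon-stimulated effectors in 7 libraries as a colour scale of log2(CPM + 1) minus the control mean of each gene. Knockdown replicate 1 resembles the controls (median 0.01), and replicates 2, 3 and 4 are higher (medians 1.17, 3.47 and 1.81).

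Upstream of these effectors, the interferon genes themselves were at or near the floor. Ifna1, Ifna2, Ifnb1 and both Ifnl genes of the table had no read in any of the 7 libraries, which allows up to 3 reads in each, and Ifng had 1 read in each of knockdown replicates 2 and 3. Jak1, the kinase shared by both interferon receptors and the most abundant member, was at 218, 171, 147 and 139 CPM in knockdown and 165, 132 and 178 CPM in controls (log2 difference 0.09, SE 0.22). Downstream factors were higher. Irf7, the factor that amplifies type I interferon production, was at 1.54, 8.97, 85.6 and 20.2 CPM against 1.75, 2.49 and 1.92 CPM (log2 difference 3.78, SE 1.16). Usp18, which restrains the interferon receptor, was at 1.12, 2.80, 29.8 and 9.32 CPM against 0.437, 1.38 and 0.343 CPM (log2 difference 3.78, SE 1.16). For both genes, replicates 2 to 4 were above every control and replicate 1 was not. Of 17 tested members of this group 13 were higher (median 0.48, or 0.17 without replicate 3). An unadjusted p under 0.05 was found for 7, against 4.32% of all tested genes. Among nucleic acid sensors, 16 of 17 were higher (median 1.18, or 0.75 without replicate 3). Of these, 11 had an unadjusted p under 0.05 and 7 did not overlap, against 4.32% and 3.73% of all tested genes. Ddx58, which encodes the RNA sensor RIG-I, was at 5.75, 7.29, 40.2 and 18.5 CPM against 2.19, 3.96 and 3.43 CPM (log2 difference 2.41, SE 0.68), so that here replicate 1 was above the controls too. Dhx58, its relative LGP2, was at 1.82, 3.27, 12.5 and 4.79 CPM against 1.31, 1.20 and 0.961 CPM (log2 difference 2.33, SE 0.68).

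Class I antigen presentation, which shows cytosolic peptides to cytotoxic T cells, had the same order of knockdown libraries by list score. All 18 tested members were higher (median 1.69), 10 of them at an unadjusted p under 0.05, against 4.32% of all tested genes. B2m, the invariant light chain, was at 54.3, 256, 371 and 164 CPM in knockdown and 45.9, 50.9 and 40.2 CPM in controls, without overlap (log2 difference 2.21, SE 0.54). H2-K1, a class I heavy chain chosen after its values were seen, was at 25.2, 57.2, 276 and 124 CPM against 26.7, 31.2 and 20.5 CPM (log2 difference 2.21, SE 0.69). H2-D1 was at 14.2, 37.8, 103 and 60.7 CPM against 10.9, 14.5 and 7.35 CPM (log2 difference 2.31, SE 0.59). Both heavy chains were at the control level in replicate 1 and above it in replicates 2 to 4, and reads of these related genes may have been split among copies, H2-Q4 included (log2 difference 3.34, SE 0.96). Without replicate 3 the median was 1.03. Members above the highest control made up 16.7%, 83.3%, 100% and 94.4% of the list in replicates 1 to 4, against 26.1%, 37.6%, 29.3% and 25.4% of all tested genes. Class II genes, which mark antigen-presenting cells, were low in abundance: Cd74, the invariant chain, was at 3.08, 12.1, 56.8 and 18.0 CPM against 2.19, 5.15 and 5.56 CPM (log2 difference 2.27, SE 0.81). All 7 tested class II members were higher (median 2.05, or 0.74 without replicate 3), and the groups overlapped for each of them.

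Microglial genes were higher as well, again least in knockdown replicate 1. In bulk tissue, more cells of a type and more RNA per cell cannot be told apart. All 18 homeostatic microglia markers were higher (median 0.72, or 0.47 without replicate 3). Of these, 10 had an unadjusted p under 0.05 and 3 did not overlap, against 4.32% and 3.73% of all tested genes. The summed level of the 18 markers was 579, 866, 1221 and 871 CPM in knockdown and 595, 529 and 406 CPM in control libraries. Of 24 tested markers of activated microglia and macrophages, 22 were higher (median 1.51). Among them 17 had an unadjusted p under 0.05 and 11 did not overlap, against 4.32% and 3.73% of all tested genes. DESeq2 called 7, against 0.446%. Of the 18 members with a control mean of at least 1 CPM, 17 were higher (median 1.35). Without replicate 3, 18 members passed the filter and 16 were higher (median 1.11). Members above the highest control made up 50%, 79.2%, 95.8% and 83.3% of that activated list in replicates 1 to 4, against 26.1%, 37.6%, 29.3% and 25.4% of all tested genes. Ctss, a lysosomal protease, was at 58.9, 170, 249 and 157 CPM against 47.2, 52.6 and 36.7 CPM (log2 difference 1.81, SE 0.42). Trem2, a lipid-sensing receptor, was at 14.2, 25, 37.9 and 28.7 CPM against 16.2, 9.85 and 7.07 CPM, with overlap (log2 difference 1.34, SE 0.38). Cd14, the lipopolysaccharide co-receptor, was at 2.52, 4.02, 6.37 and 4.40 CPM against 1.75, 1.38 and 0.892 CPM (log2 difference 1.81, SE 0.43). Ctss and Cd14 were above the controls in all 4 knockdown libraries. Cst7, a cystatin of disease-associated microglia, had 113 reads in the knockdown and 2 in the control libraries. On these pooled reads the ratio was 44.8 after scaling for depth (95% counting interval 12.1 to 374, without the spread between libraries). By library, Cst7 was at 0.28, 2.1, 6.8 and 3.2 CPM in knockdown replicates 1 to 4 and 0, 0.092 and 0.069 CPM in controls.

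Complement genes were higher in the same libraries. C1qb, a subunit of the initiating C1q complex, was at 56.4, 90.6, 193 and 99.6 CPM against 35.4, 44.3 and 30.1 CPM (log2 difference 1.59, SE 0.38). C4b was at 135, 131, 551 and 387 CPM against 64.3, 36.7 and 30.9 CPM (log2 difference 2.80, SE 0.57). Both were above all controls in each knockdown library, although reads of C4b may be shared with its copy C4a. Of 16 tested complement genes, 13 were higher (median 1.46, or 0.73 without replicate 3). Of these 13, 8 had an unadjusted p under 0.05 and 7 did not overlap, against 4.32% and 3.73% of all tested genes. Lower without overlap was 1 complement gene, against 3.29% of all tested genes. DESeq2 called 5 complement genes as higher, against 0.446% of all genes it tested. Among chemokines and cytokines, 12 of 14 tested members were higher (median 1.28). Only 7 of the 14 had a control mean of at least 1 CPM, of which 5 were higher and 2 lower (median 0.37). Without knockdown replicate 3, 8 members passed the filter and their median was 0.30. Cxcl10, an interferon-induced attractant of T cells, was at 0.421, 3.74, 99.0 and 29.2 CPM against 0.437, 0.184 and 0.137 CPM (log2 difference 7.39, SE 1.95): replicate 1 was inside the control range. Ccl5, another T cell attractant, had 462 reads in the knockdown libraries and 1 in the controls. On these pooled reads the ratio was 366 (95% counting interval 65.4 to 14488, without the spread between libraries). By library, Ccl5 was at 0.701, 6.73, 23.1 and 21.6 CPM in knockdown replicates 1 to 4. Cx3cl1, the neuronal ligand of the microglial receptor CX3CR1, was at 561, 322, 492 and 501 CPM against 649, 544 and 496 CPM (log2 difference -0.26, SE 0.24).

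Lymphocyte transcripts were at low levels in both groups. Of 27 listed lymphocyte and plasma cell genes with a read, 5 were tested, 4 of them higher and 1 lower. The lower member (log2 difference -0.21) was the only 1 with a control mean of at least 1 CPM. Summed over the listed lymphocyte and plasma cell genes, the level was 6.17, 14.9, 41.5 and 31.3 CPM in knockdown replicates 1 to 4 and 3.5, 5.06 and 5.84 CPM in controls, without overlap. Jchain, the joining chain of secreted antibodies, was at 1.68, 5.05, 7.11 and 8.41 CPM against 0, 0.276 and 0.481 CPM (log2 difference 3.97, unadjusted p = 0.000253 in edgeR's test). Ly9, a lymphocyte surface receptor, had 135 reads against 2, a ratio of 53.5 on pooled reads (95% counting interval 14.5 to 446, without the spread between libraries). By library, Ly9 was at 0.56, 2.1, 7.3 and 5.2 CPM in knockdown replicates 1 to 4 and 0, 0 and 0.14 CPM in controls. Cd6 was at 0.701, 0.561, 2.02 and 4.92 CPM in knockdown and 0.874, 1.20 and 0.412 CPM in control libraries. Its groups overlapped (log2 difference 1.33, SE 0.82). The T cell receptor and co-receptor genes Cd3d, Cd3e, Cd3g, Cd8a and Cd8b1, chosen after their values, 0 in the controls included, were seen, together had 1, 15, 76 and 17 reads in knockdown replicates 1 to 4. They had no read in any control library, where 3 reads would be 1.31, 0.276 and 0.206 CPM in control replicates 1 to 3. Against a floor of 3 reads over the control group, the level of these 5 genes in the knockdown group was at least 28.8-fold higher. Without replicate 3, which held 76 of the 109 reads, their level was at least 11.9-fold higher. Because the 0 in the controls was known at the choice, these bounds do not describe the list. Only 9 of its 27 genes with a read had none in the controls. The single read in replicate 1 equals 0.140 CPM, below that of the floor in the same library (0.421 CPM), and replicate 3 reached 8.07 CPM. Neutrophil and monocyte genes summed to 3.22 to 11.1 CPM in knockdown and 1.38 to 3.06 CPM in control libraries, and the globin genes of red blood cells were listed at 0 in all 7. These sums moved with the interferon, class I and microglial genes across the knockdown libraries, and the part of infiltrating cells in those results was not tested.

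All 20 tested reactive astrocyte genes were higher (median 1.64). Of these, 11 had an unadjusted p under 0.05 and 6 did not overlap, against 4.32% and 3.73% of all tested genes, and DESeq2 called 5, against 0.446%. Gfap, the intermediate filament of reactive astrocytes, was at 1052, 671, 3551 and 1145 CPM in knockdown and 512, 373 and 312 CPM in control libraries (log2 difference 2.01, SE 0.55). Vim, another filament gene chosen after its values were seen, was at 57.3, 80.2, 574 and 214 CPM against 48.5, 44.7 and 38.4 CPM (log2 difference 2.40, SE 0.73). Both were above the controls in every knockdown library and highest in replicate 3. Osmr, the oncostatin M receptor, was at 8.13, 12.6, 28.5 and 8.93 CPM against 4.81, 3.59 and 4.46 CPM (log2 difference 1.79, SE 0.47). Aspg, an asparaginase induced in astrocytes after injury, was at 5.89, 7.20, 28.1 and 11.4 CPM against 1.75, 3.41 and 2.47 CPM (log2 difference 2.29, SE 0.58). The median of the list was 1.01 without replicate 3 and at most 1.93 without any other library. Cxcl10, the interferon-induced gene described with the chemokines, is also a member of this list and had its highest log2 difference (7.39). Homeostatic astrocyte markers leaned the other way by small amounts, with 14 of 18 lower (median -0.19) and 1 at an unadjusted p under 0.05. That member was the amino acid transporter Slc7a10, at 28.9, 19.0, 28.2 and 23.3 CPM against 34.1, 38.4 and 30.5 CPM (log2 difference -0.47, SE 0.20). The glutamate transporter Slc1a2 was at 2916, 731, 2370 and 2313 CPM against 2558, 3006 and 1675 CPM, low in replicate 2 and overlapping otherwise (log2 difference -0.21, SE 0.43).

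**Figure D4:**
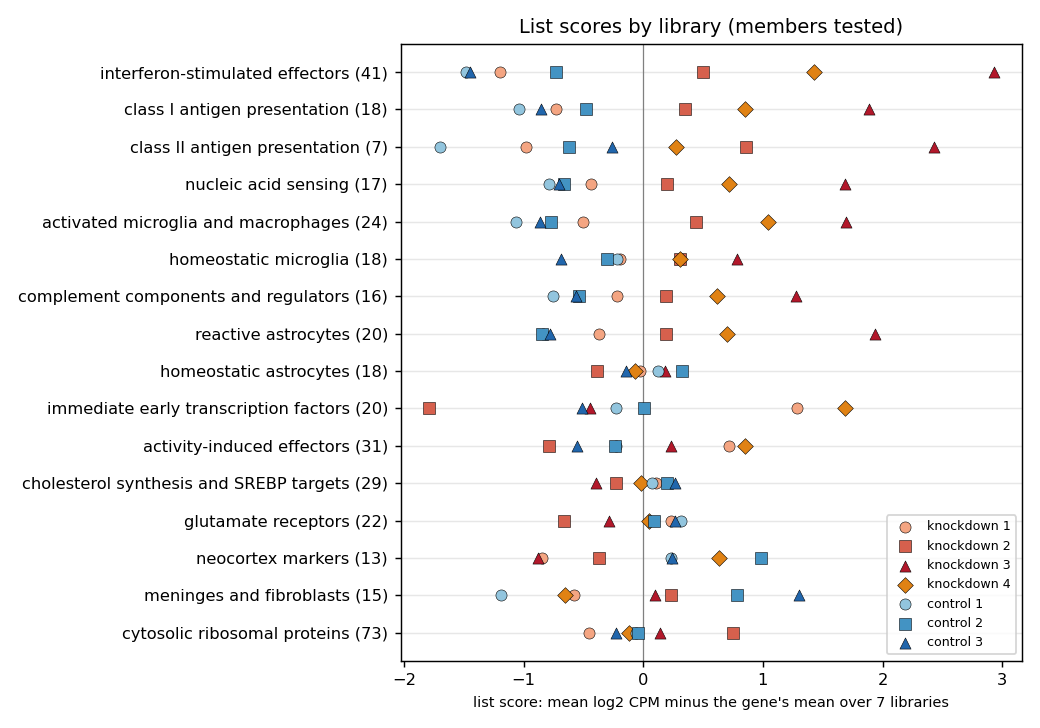
Scores of 16 gene lists in each library: the mean over members of log2 CPM minus the gene's mean over the 7 libraries. For interferon-stimulated effectors the knockdown libraries lie at -1.20, 0.50, 2.93 and 1.42 and the controls at -1.48, -0.73 and -1.45. For immediate early transcription factors the knockdown libraries lie at 1.28, -1.79, -0.44 and 1.68 and the controls at -0.23, 0.0083 and -0.51. There knockdown replicates 1 and 4 lie above the controls, replicate 2 below them and replicate 3 within their range.

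Immediate early genes split the knockdown libraries along another line. Npas4, a transcription factor specific to neuronal activity, was at 359, 1.50, 24.1 and 567 CPM in knockdown replicates 1 to 4 and at 24.9, 32.5 and 7.28 CPM in controls (log2 difference 3.48, SE 1.49). Fos, chosen after its values were seen, was at 271, 1.96, 15.6 and 388 CPM against 20.5, 37.1 and 18.7 CPM (log2 difference 2.72, SE 1.33). Fosb was at 176, 8.04, 14.9 and 238 CPM against 15.7, 22.3 and 16.3 CPM (log2 difference 2.58, SE 1.05). For all 3, replicates 1 and 4 were several times above every control and replicate 2 was below every control. Egr1, the most abundant member, was at 462, 19.8, 90.6 and 635 CPM against 283, 244 and 111 CPM, with replicates 2 and 3 below the controls (log2 difference 0.51, SE 0.90). Atf3, a stress-responsive factor, was at 3.65, 2.06, 5.52 and 15.8 CPM against 0.437, 1.10 and 1.17 CPM, and was the 1 member without overlap (log2 difference 2.69, SE 0.74). Members above the highest control made up 75%, 5%, 25% and 75% of the 20 genes in replicates 1 to 4, against 26.1%, 37.6%, 29.3% and 25.4% of all tested genes. Of the 20 genes, 16 were higher and 4 lower, and 4 of the higher had an unadjusted p under 0.05, against 4.32% of all tested genes. The group median of 0.84 thus averages libraries that differ from one another by more than the groups do. Replicate 1 was high for these factors and at the control level for the interferon-stimulated effectors, and replicate 2 was low for the factors and above the controls for most effectors.

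**Figure D5:**
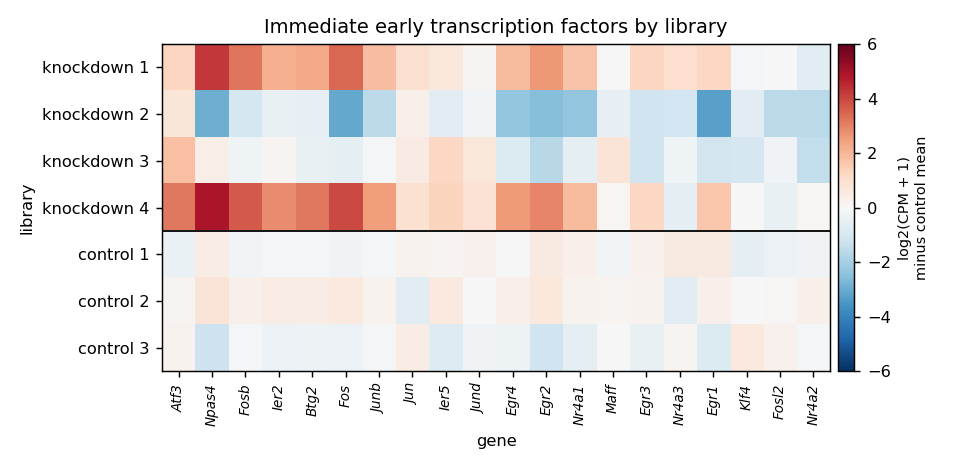
Levels of 20 immediate early transcription factors in 7 libraries as a colour scale of log2(CPM + 1) minus the control mean of each gene. Knockdown replicates 1 and 4 are higher than the controls (medians 1.29 and 1.79), and knockdown replicate 2 is lower (median -1.17). Knockdown replicate 3 (median -0.260) lies within the range of the control medians, -0.264 to 0.249.

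Of 31 activity-induced effectors, 26 were higher (median 0.63). At an unadjusted p under 0.05, 11 were higher and 1 lower, against 4.32% and 2.52% of all tested genes. Without overlap, 5 were higher, against 3.73%. Members above the highest control made up 77.4%, 22.6%, 61.3% and 77.4% of the list in knockdown replicates 1 to 4. The all-gene shares were 26.1%, 37.6%, 29.3% and 25.4%. In replicate 2 a share of 58.1% lay below every control, against 35.0% of all tested genes. Without replicate 2 the median was 1.01. Then 18 higher members had an unadjusted p under 0.05 and 16 did not overlap, against 5.03% and 6.03% of all tested genes. Ptgs2, which encodes cyclooxygenase-2, was at 159, 27.5, 47.3 and 152 CPM in knockdown and 21.9, 6.35 and 11.5 CPM in control libraries (log2 difference 2.97, SE 0.69). Vgf, a secreted neuropeptide precursor, was at 586, 142, 973 and 556 CPM against 233, 271 and 215 CPM, with replicate 2 below the controls (log2 difference 1.23, SE 0.51). Penk and Rgs2, described above, belong to the same list. The next 3 genes were chosen after their values were seen. Arc, a synaptic capsid-like protein, was at 594, 15.2, 83.4 and 833 CPM against 227, 242 and 61.9 CPM (log2 difference 1.11, SE 1.06). Bdnf, a neurotrophin, was at 77.5, 46.5, 111 and 68.8 CPM against 56.4, 31.2 and 25.6 CPM (log2 difference 1.04, SE 0.35). Nptx2, which clusters AMPA receptors, was at 201, 21.7, 108 and 292 CPM against 41.5, 28.0 and 22.1 CPM (log2 difference 2.38, SE 0.71). Arc had the immediate early order of libraries, and the groups overlapped for all 3, Bdnf and Nptx2 through replicate 2.

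Synaptic gene lists had medians slightly below 0, and the knockdown libraries lay on both sides of the controls. Of 22 glutamate receptor genes, 16 were lower (median -0.26), 3 of them at an unadjusted p under 0.05, against 2.52% of all tested genes. These 3 were all metabotropic. Grm3 was at 47.0, 34.8, 31.3 and 56.8 CPM in knockdown and 72.6, 84.0 and 55.3 CPM in control libraries (log2 difference -0.73). Grm2 was at 17.1, 23.8, 61.3 and 38.7 CPM against 90.9, 68.1 and 61.0 CPM (log2 difference -1.05), and Grm4 was at 19.9, 6.17, 17.8 and 28.9 CPM against 41.5, 44.9 and 22.6 CPM (log2 difference -0.99). The groups overlapped for each of these genes. The AMPA receptor subunit gene Gria1 was at 1356, 652, 936 and 526 CPM against 1086, 541 and 930 CPM (log2 difference 0.03). Postsynaptic, presynaptic and GABAergic lists had medians of -0.19, -0.16 and -0.11. In knockdown replicate 1, 55% of postsynaptic and 63.6% of presynaptic genes were above every control, against 26.1% of all tested genes. In replicate 2, 80% and 68.2% were below every control, against 35.0% of all tested genes. The shares below every control in replicate 3 were 30% and 90.9%, against 30.2%, so the postsynaptic share there was at the background. The postsynaptic median was 0.05 without knockdown replicate 2 and 0.10 without control replicate 1, and the GABAergic median was 0.03 without knockdown replicate 3 and 0.10 without control replicate 3, so that the sign of both rests on single libraries. Slc17a6, the vesicular glutamate transporter of subcortical neurons, was at 4.63, 11.5, 1.06 and 5.05 CPM against 15.3, 51.8 and 15.3 CPM, without overlap (log2 difference -2.32). Npy, neuropeptide Y, went the other way, at 131, 84.3, 450.0 and 125 CPM against 49.4, 34.3 and 33.8 CPM (log2 difference 2.35), also without overlap and called by DESeq2.

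Markers of the dissected region were present in every library. The CA1 and dorsal hippocampus markers summed to 590 to 1060 CPM in knockdown and 964 to 1287 CPM in control libraries, with knockdown replicate 4 the lowest, and 6 were higher and 6 lower. Mpped1, listed as a CA1 marker, was at 197, 165, 195 and 156 CPM against 264, 274 and 294 CPM, without overlap (log2 difference -0.64). Wfs1, another CA1 marker, was at 142, 133, 84.0 and 129 CPM against 308, 221 and 147 CPM, also without overlap (log2 difference -0.88). The dentate granule marker Dsp was at 1.40, 2.43, 4.99 and 0.647 CPM against 62.1, 1.93 and 13 CPM, so that its log2 difference of -3.30 rests on control replicates 1 and 3. Genes of neighbouring tissue varied between libraries in both groups. Meningeal and fibroblast genes were lower in 12 of 15 cases (median -0.88), and summed to 287, 935 and 1228 CPM in control replicates 1 to 3 against 285 to 779 CPM in knockdown libraries. Hypothalamic markers summed to 6.31, 13.7, 172 and 12 CPM in knockdown replicates 1 to 4 and to 6.11 to 7.73 CPM in controls, and Trh, chosen after its values were seen, held 144 CPM of the sum in replicate 3. Gal, the galanin precursor and a member of that list, was at 1.96, 2.52, 15.5 and 1.42 CPM against 0.437, 0 and 0.206 CPM (log2 difference 5.07). Replicate 3 was also the library with the highest interferon, class I and reactive astrocyte levels, and the part of tissue from outside the hippocampus in those results was not tested. Pan-neuronal genes (median -0.12) summed to 10024, 8156, 6105 and 7640 CPM in knockdown and 8949, 7989 and 8352 CPM in control libraries. Of the 14 members, 85.7% were below every control in replicate 3, against 30.2% of all tested genes. In replicate 1, 71.4% were above every control, against 26.1% of all tested genes. The median was -0.02 without replicate 3. The part of this lower neuronal level in the glial and interferon results of replicate 3 was not tested. Medians were -0.10 for oligodendrocyte precursors, 0.16 for mature oligodendrocytes and -0.11 for the endothelium.

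Housekeeping and stress programmes were close to the background in median. Ribosomal protein genes were higher in 67 of 73 cases (median 0.27). However, 93.2% of them were above the controls in knockdown replicate 2, the library with the least Rn45s, against 37.6% of all tested genes. Without that library the median was -0.0017. Heat shock and unfolded protein genes had a median of -0.11, with 8 higher and 15 lower, and glucocorticoid-responsive genes a median of 0.05. Among the latter, Ddit4, an inhibitor of mTOR signalling, was at 40.7, 35.0, 43.0 and 34.7 CPM in knockdown and 66.9, 49.6 and 62.2 CPM in control libraries, without overlap (log2 difference -0.63). Of 10 tested cell cycle genes 9 were higher (median 0.28), led by Ccnd1, cyclin D1, at 74.0, 65.7, 108 and 71.0 CPM against 40.7, 43.5 and 54.6 CPM (log2 difference 0.78).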

How the data were processed

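Per the labels, RNA was extracted with QIAzol and RNeasy columns and libraries were made with a directional NEBNext kit. Per the submitters' processing notes, the tools and build were STAR 2.5.2a, HTSeq 0.6.1p1 and mm10; neither their roles nor the strand setting is stated in those notes. The values used are the read counts per gene that the authors deposited, as whole numbers without normalization.

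The 5 summary lines of the table were dropped. Reads assigned to genes made up 64.5% to 76.2% of the reads counted as gene, no feature or ambiguous in each library. Of 24498 genes, 19125 had a read in the 7 libraries and 14035 passed filterByExpr (minimum count 10). Groups were compared with edgeR 4.0.16 (TMM, robust quasi-likelihood test, Benjamini-Hochberg adjustment) without a replicate block, in R 4.3.3, and with DESeq2 1.42.0 as an alternative. The script was tested on simulated data. Counting intervals (95%) were computed on reads pooled over the libraries of each group. The intervals and the floors (3 reads) cover counting error only and not the spread between libraries. No molecular identifiers are recorded.

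The members and gene lists were chosen with earlier results of these data known. Named genes were Acss2, the 10 genes in each direction with the smallest p (mean of at least 5 CPM, no overlap between the groups, no predicted or clone names) and, from each list, the member with the highest mean and the 3 with the smallest p at a mean of at least 1 CPM. Promoters were shown for the list with the smallest median p among those searched for the motif; the lymphocyte list had a smaller median p but was not searched. Gene positions and exon overlaps were taken from GENCODE M21 on mm10: of 177 named genes, 45 share exonic sequence with a gene on the opposite strand, and without strand such reads cannot be told apart. Same-numbered libraries of both groups did not deviate together (correlations 0.24, 0.03 and -0.26), so numbers were not used as pairs.

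Alternatives were RLE scaling, no filter on low counts, 14 ethanol libraries in the fit, knockdown replicate 5 added, DESeq2, a replicate block, CPM without TMM for Acss2, each library left out and, added after seeing the data, Rn45s left out of library sizes.

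Some genes are not reported here.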

Additional observations from a re-analysis of the deposited data

Results flagged for a closer look

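Each value of the 4 knockdown libraries was compared with the range of its group, and 14 of 217 values (6.45%) had 1 library whose gap to the nearest other exceeded Dixon's 95% critical value for 4 samples. Chance alone gives about 1 in 20. Groups of 3, such as the controls, were not examined.

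In knockdown replicate 3, Ecel1 was at 88.9 CPM (other knockdown libraries 26.1 to 36), Gfap at 3551 CPM (671 to 1145) and Npy at 450.0 CPM (84.3 to 131). In the same library the dentate marker Lct was at 12.2 CPM (1.81 to 2.62) and the hypothalamic marker Gal at 15.5 CPM (1.42 to 2.52). In knockdown replicate 2, Nat8l was at 143 CPM (274 to 299) and Brd2 at 137 CPM (221 to 232), below the others. Uchl1 at 798 CPM (488 to 522), Pcna at 31.4 CPM (23.3 to 24.1) and Zic4 at 1.87 CPM (1.12 to 1.17) were above the others there. In knockdown replicate 4, Col5a1 was at 109 CPM (28.7 to 37.6) and the cortical marker Mef2c at 309 CPM (72.9 to 92.7).

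The score of the acetyl-CoA supply list was 0.0134 in knockdown replicate 2, against -0.08 to -0.06 in the others. The score of ependymal and motile cilia genes was -0.68 in knockdown replicate 1, against 0.25 to 0.41.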

How the results depend on the processing

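The edgeR test called 0 genes in each alternative except the replicate block, which called 7 genes: Ccl5, Ecel1, Ifi27l2a and Ptgs2 were higher and Rxfp1, Tshz2 and Unc13c lower. DESeq2 called 91. The cause of the difference was not tested. The number of genes at an unadjusted p under 0.05 ranged from 578 (without knockdown replicate 3) to 1413 (without knockdown replicate 1), with 602 without control replicate 2. The higher share of these genes was 63.2%, but 74.1% with 14 libraries in the fit, 72.4% without control replicate 2 and 54.1% under the block. The log2 difference of Acss2 kept its sign throughout, between -1.07 and -0.66 with 1 library left out.

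Of 176 named genes other than Acss2, 21 changed sign in some setting. Under the replicate block, Egr1 was at -0.92, Arc at -0.42, Fos at -0.18, Brd2 at -0.089 and Alas2 at -0.0041. With knockdown replicate 5 added, Gria1 was at -0.092, Snap25 at -0.047, Mbp at -0.0060 and Brd2 at -0.0045. With 1 library left out at a time, log2 differences ranged from -0.052 to 0.17 for Brd2, -0.30 to 0.016 for Scd2, -0.039 to 0.18 for Jak1, -0.20 to 0.45 for Mmp9, -0.42 to 0.073 for Slc1a2, -0.15 to 0.90 for Egr1 and -0.25 to 0.24 for Gria1. They ranged from -0.56 to 0.17 for Camk2a, -0.015 to 0.20 for Snap25, -0.19 to 0.032 for Gabbr1, -0.12 to 0.91 for Calb1, -2.87 to 0.60 for Lct, -0.83 to 0.096 for Col5a1 and -0.72 to 0.18 for Enpp2. For Foxj1 the range was -0.0049 to 0.84, for Mbp -0.26 to 0.44, for Cldn11 -0.050 to 0.61, for Olig1 -0.30 to 0.17 and for Alas2 -0.49 to 0.28.

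Among list medians, the immediate early factors turned to -0.05 under the block, and the medians of acetyl-CoA supply, alcohol oxidation, CA1, dentate, postsynaptic, GABAergic, glucocorticoid, endothelial, choroid plexus and oligodendrocyte genes turned sign in at least 1 setting. Interferon, class I, class II, complement, microglial, reactive astrocyte and cholesterol medians kept theirs in every setting run. Control replicate 1, at 2819837 gene reads, sets the highest floor for rare transcripts.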

Other observations

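Choroid plexus genes, which mark the ventricle beside the hippocampus, moved in both directions. Prlr, the prolactin receptor, was at 16.1, 15.7, 22.9 and 7.89 CPM in knockdown replicates 1 to 4 and at 2.62, 6.90 and 4.67 CPM in controls (log2 difference 1.64, SE 0.40), and DESeq2 called it. Igf2, also abundant in meninges, was at 12.8, 24.3, 22.7 and 13.8 CPM against 19.7, 79.1 and 87.7 CPM (log2 difference -1.78, SE 0.44), low in control replicate 1 as in the knockdown libraries, and was likewise called by DESeq2. Kcnj13, a choroid plexus potassium channel, was at 0.561, 1.40, 1.38 and 1.04 CPM against 2.19, 5.34 and 2.20 CPM, without overlap (log2 difference -1.58, SE 0.47). Of 13 tested choroid plexus genes 3 were higher and 10 lower.

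Calb2, which encodes calretinin and marks mossy cells and some interneurons, split the libraries without regard to group: it was at 110, 116, 11.7 and 13.8 CPM in knockdown and 12.2, 9.39 and 49.8 CPM in control libraries. Nnat, an imprinted gene listed as a CA3 marker, was at 569, 794, 318 and 244 CPM against 229, 249 and 597 CPM. Both were high in knockdown replicates 1 and 2 and in control replicate 3. A pair of markers of oligodendrocyte precursors were lower: Gpr17 was at 40.2, 38.9, 33.4 and 32.5 CPM against 48.5, 47.0 and 48.7 CPM, without overlap (log2 difference -0.41, SE 0.16), and Pdgfra was at 55.2, 35.0, 36.2 and 43.5 CPM against 58.6, 61.9 and 53.2 CPM (log2 difference -0.45, SE 0.20).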
